A study of Mus musculus with 22 samples.

Results

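Fibroblasts and adipose progenitors were followed in mammary tissue through 10 marker genes, chosen by name and read from the deposited table of 52526 gene symbols. The 10 genes were Pdgfra, Dpp4, Pi16, Cd34, Ly6a, Dcn, Lum, Clec3b, Cxcl12 and Cd55, and all 10 were above the lowest reported value in 22 of 22 mice. The tissue was the left 4th mammary fat pad of female C57BL/6J mice aged 7 to 8 weeks, taken 24 hours after 100000 EO771 cells, a mouse mammary cancer line made to express firefly luciferase, had been engrafted into it. For 2 weeks before engraftment the mice lived with a running wheel (Wheel) or with the hub shelter alone (Control). Each mouse also received liposomes, filled with PBS buffer or with clodronate, a drug that kills phagocytes that take it up, first 24 hours before engraftment and again with it. The 4 groups were Control with PBS liposomes (n = 6), Wheel with PBS liposomes (n = 6), Control with clodronate liposomes (n = 5) and Wheel with clodronate liposomes (n = 5). All 22 mice carried cancer cells, so no group shows the tissue without them. Each library came from 1 mouse, so the spread below is the spread between mice.

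The stroma of a fat pad holds fibroblasts that lay down collagen and proteoglycans, and progenitor cells that can become adipocytes. In adipose tissue, Dpp4, Pi16 and Cd55 are known as markers of the progenitors that lie in the interstitial and adventitial tissue around vessels, while Pdgfra and Dcn mark fibroblasts and progenitors in general. Several of the markers are shared with other cells: Cd34 and Ly6a are also made by endothelium and blood cells, and Cd55 by many cell types. In bulk tissue, fewer cells of a type and less RNA per cell cannot be told apart.

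Libraries were made with a method that reads the 3′ end of each transcript, so that values of different genes could be compared without dividing by length. Values are CPM, read counts scaled to a common library total, with everything below 1 CPM raised to 1. The depth was 13256467 to 20484578 reads per mouse, and the smallest value of any marker, for Dpp4, rested on 30 reads. A set of 5 libraries, 1 of Control with PBS, 1 of Wheel with PBS and 3 of Wheel with clodronate, stood apart by a sum of 271 to 779 CPM over 12 lymphocyte markers, against 12.0 to 23.1 CPM in the other mice. In 2 libraries, 1 from each clodronate group, 12 skeletal muscle markers summed to 31430 and 13744 CPM, against at most 3981 CPM elsewhere. Fat pads can hold a lymph node and lie next to muscle, and what these libraries add to a result was not tested beyond the values without them. The share of reads in genes also differed, at 57.2% to 58.5% in Wheel mice with clodronate, 58.7% to 63.0% in Control mice with clodronate, 58.3% to 63.7% in Wheel and 60.4% to 64.5% in Control mice with PBS.

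For 6 of the 10 genes the RefSeq promoter table for GRCm38.p6 held a promoter, from 250 bases before to 50 bases after a start used in that table. Of these, 4 are shown: Cd34, Pi16 and Cxcl12, which varied between mice together with Clec3b, and Cd55, which had the largest difference of the 10 between single groups. Capitals mark matches, on either strand, to the letters of 3 common promoter motifs. Of all 32851 promoters in that table, 13.6% held the TATA box (TATAAA). The CCAAT box (CCAAT) was present in 37.4% of them, and the GC box (GGGCGG) was present in 35.7%. The positions were chr1:194938571-194938870 (+ strand) for Cd34, chr17:29318632-29318931 (+ strand) for Pi16, chr6:117168285-117168584 (+ strand) for Cxcl12 and chr1:130462695-130462994 (- strand) for Cd55. The gene annotation GENCODE M21 starts Pi16 at 29317680, so by that annotation the Pi16 window lies inside the gene.
Cd34 promoter: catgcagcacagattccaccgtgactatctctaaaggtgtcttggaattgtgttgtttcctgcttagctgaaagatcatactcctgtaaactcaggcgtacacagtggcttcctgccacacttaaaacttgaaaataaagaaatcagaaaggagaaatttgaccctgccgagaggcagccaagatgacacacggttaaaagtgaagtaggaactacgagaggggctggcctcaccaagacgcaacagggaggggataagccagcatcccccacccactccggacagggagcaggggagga
Pi16 promoter: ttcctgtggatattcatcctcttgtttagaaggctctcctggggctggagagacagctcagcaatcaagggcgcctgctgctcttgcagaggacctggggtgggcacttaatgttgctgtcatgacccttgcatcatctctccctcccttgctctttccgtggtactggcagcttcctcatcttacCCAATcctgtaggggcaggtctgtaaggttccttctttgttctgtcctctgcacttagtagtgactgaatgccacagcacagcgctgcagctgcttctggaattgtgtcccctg
Cxcl12 promoter: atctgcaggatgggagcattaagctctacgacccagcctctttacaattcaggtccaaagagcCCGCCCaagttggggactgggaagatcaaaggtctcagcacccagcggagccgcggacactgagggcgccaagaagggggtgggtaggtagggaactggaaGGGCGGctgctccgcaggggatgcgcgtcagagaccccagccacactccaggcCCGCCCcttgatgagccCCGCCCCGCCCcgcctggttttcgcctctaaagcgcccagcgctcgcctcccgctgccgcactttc
Cd55 promoter: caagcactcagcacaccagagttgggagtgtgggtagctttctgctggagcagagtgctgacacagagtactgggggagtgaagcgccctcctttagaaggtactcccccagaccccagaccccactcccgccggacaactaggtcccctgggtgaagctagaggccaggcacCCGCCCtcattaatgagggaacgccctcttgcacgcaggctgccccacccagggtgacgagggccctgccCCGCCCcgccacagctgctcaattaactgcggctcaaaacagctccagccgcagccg
The Cxcl12 promoter held 5 matches to the GC box and the Cd55 promoter 2, that of Pi16 had 1 match to the CCAAT box, and no match to the 3 motifs stood in the 300 bases of Cd34. Matches to the GC box can overlap each other. GC content was 50% for Cd34, 53.3% for Pi16, 64.7% for Cxcl12 and 63.3% for Cd55.

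The order of the markers by level was partly the same from mouse to mouse. Dcn, the collagen-binding proteoglycan decorin, was highest at 761 ± 241 CPM (SD over 22 mice, 441 to 1396). It made up 48.2% to 72.3% of the summed CPM of the 10 genes (median 60.01%). Ly6a, the surface antigen Sca-1, followed at 180 ± 47.5 CPM, and Dcn > Ly6a > Cxcl12 held in 22 of 22 mice. The next 4 genes lay close together: the chemokine Cxcl12 at 79.9 ± 19.8, the proteoglycan Lum (lumican) at 61.2 ± 19.1, the sialomucin Cd34 at 60.04 ± 18.9 and Clec3b (tetranectin) at 52.8 ± 18.7 CPM. Neighbours among them changed places often, Lum lying above Cd34 in 10 of 22 mice and Cd34 above Clec3b in 14. Clec3b was above Pdgfra, the receptor for platelet-derived growth factor, in 22 of 22 mice. Pdgfra was at 24.2 ± 5.34, Pi16 (peptidase inhibitor 16) at 19.1 ± 9.21, Cd55 (a brake on complement) at 16.9 ± 8.17 and Dpp4 (the peptidase CD26) at 11.2 ± 6.11 CPM. Pdgfra exceeded Pi16 in 15 mice, Pi16 exceeded Cd55 in 13 and Cd55 exceeded Dpp4 in 18, so these neighbours did not keep 1 order.

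**Figure D1:**
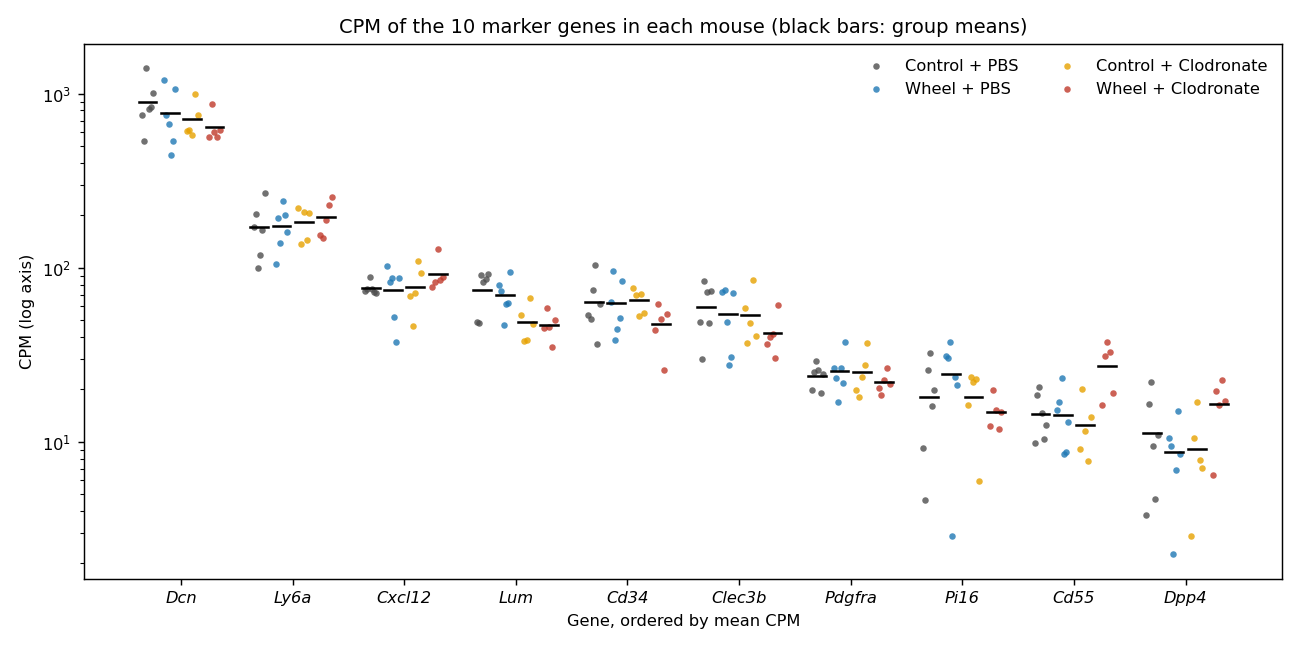
CPM on a log axis for the 10 marker genes, ordered by mean, with 1 point per mouse coloured by group and black bars at group means. Dcn lies between 441 and 1396 CPM in every mouse, and the points of the 4 groups overlap for all 10 genes, with Cd55 and Dpp4 highest on average in Wheel mice with clodronate liposomes.

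Pi16 and Dpp4 varied most between mice of the same group. With group means removed, the SD of log2(CPM + 1) was 0.90 for Pi16 and 0.79 for Dpp4, above those of 93.0% and 89.9% of the 15138 genes tested, where the median was 0.46. Pdgfra had the smallest SD, 0.30, above 17.9% of genes, and Lum followed at 0.36. Pi16 ran from 2.89 to 37.6 CPM, a ratio of 13.03, with the lowest and the highest mouse both in Wheel with PBS liposomes. Dpp4 ran from 2.25 to 22.8 CPM, a ratio of 10.1. Dcn, Ly6a, Lum, Clec3b, Cxcl12, Cd34, Cd55 and Pdgfra had ratios between 2.20 and 4.83.

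None of the 10 markers passed an adjusted p of 0.05 in any of the 7 comparisons (limma on log2(CPM + 1) over 15138 genes, Benjamini-Hochberg), nor under any of the alternatives run. The share of all genes called was 0% for wheel running with PBS liposomes, 0.00661% with clodronate liposomes, 0% for clodronate in Control mice, 0.00661% in Wheel mice, 0% for wheel running averaged over liposomes, 0.205% for clodronate averaged over activity and 0% for the difference of the wheel effect between liposomes. At an unadjusted p under 0.05 the corresponding counts of markers were 0, 1, 1, 2, 1, 1 and 1 of 10, against 4.91%, 10.4%, 6.99%, 11.6%, 8.09%, 10.4% and 7.58% of all genes. All of these were Lum or Cd55. For 0 of 10 markers were the mice of both groups fully separated in the 4 comparisons of single groups, where 0.264%, 1.27%, 0.634% and 1.26% of genes were.

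**Figure D2:**
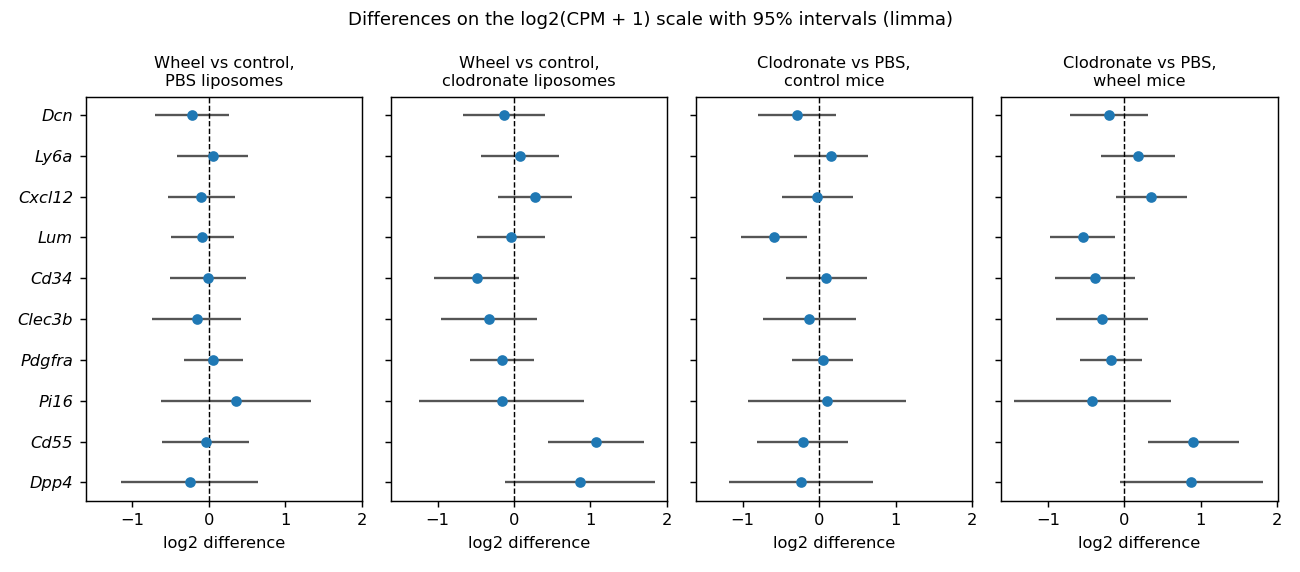
Differences on the log2(CPM + 1) scale (points) with 95% intervals (lines) for the 10 markers in the 4 comparisons of single groups, and a dashed line at 0. Only the intervals of Cd55 (1.07 and 0.90, both in comparisons with Wheel mice given clodronate) and Lum (-0.59 and -0.55 for clodronate against PBS) leave 0 out, and none passed the adjusted threshold.

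The first question was whether wheel running altered the markers in mice given PBS liposomes. With PBS liposomes, 3 markers were higher and 7 lower in Wheel than in Control mice, with a median difference of -0.06 on the log2(CPM + 1) scale, beside a median of -0.08 over all genes tested. Pi16 had the largest difference, 24.4 ± 12.0 CPM (SD, n = 6) in Wheel against 18.0 ± 10.2 (n = 6) in Control mice, or 0.36 (SE 0.47, adjusted p = 0.991). Its Wheel mice lay between 2.89 and 37.6 CPM (median 26.9) and its Control mice between 4.63 and 32.2 (median 18.0), so the groups covered nearly the same range. Without the 5 lymphocyte-rich libraries the difference was -0.13, and with 1 mouse left out it ran from 0.05 to 0.84. Dpp4 differed by -0.25 (SE 0.43, adjusted p = 0.991), at 8.78 ± 4.21 CPM in Wheel and 11.2 ± 6.99 in Control mice, and by 0.18 without the lymphocyte-rich libraries. Dcn was 774 ± 294 CPM in Wheel and 889 ± 292 in Control mice, a difference of -0.22 with an interval of -0.71 to 0.26. The receptor Pdgfra had the narrowest interval, -0.32 to 0.44 around 0.06, with 25.4 ± 6.81 CPM in Wheel and 23.9 ± 3.83 in Control mice. The differences of Cd34, Ly6a, Lum, Clec3b, Cxcl12 and Cd55 lay between -0.16 and 0.05.

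With clodronate liposomes, Cd55 had the largest difference between Wheel and Control mice. Cd55, which speeds the decay of complement convertases on the cell surface, was at 16.3, 31.0, 37.6, 32.8 and 19.0 CPM in the 5 Wheel mice. In the 5 Control mice it was at 9.13, 20.1, 11.6, 7.79 and 13.8 CPM. In total 4 of the 5 Control mice lay below all Wheel mice, and the Control mouse at 20.1 CPM lay above 2 of them. The means were 27.3 ± 9.23 and 12.5 ± 4.85 CPM, 1.07 apart on the log2(CPM + 1) scale (SE 0.30, interval 0.45 to 1.70), which did not pass over all genes (limma, adjusted p = 0.232). With PBS liposomes Cd55 was 14.3 ± 5.51 CPM in Wheel (8.54 to 23.2) and 14.4 ± 4.38 CPM in Control mice (9.85 to 20.6), and the wheel effect differed between liposomes by 1.12 (SE 0.41, interval 0.27 to 1.96, limma adjusted p = 0.619).

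Among the 5 Wheel mice with clodronate, 3 were lymphocyte-rich, and Cd55 is made by lymphocytes among other cells. All 12 lymphocyte markers were higher in these Wheel mice at an unadjusted p under 0.05 (median difference 2.39, 0 past the adjusted p), where 7.04% of all genes were, and their sum was 12.0 to 779 CPM (median 482), against 12.8 to 23.1 CPM (median 17.7) in Control mice with clodronate. The 3 lymphocyte-rich Wheel mice had 37.6, 32.8 and 19.0 CPM of Cd55, and the other 2 had 16.3 and 31.0. The Wheel mouse at 31.0 CPM was a muscle-rich library, as was the Control mouse at 20.1 CPM. Without the 5 lymphocyte-rich libraries the Cd55 difference was 0.87 (SE 0.38, adjusted p = 0.753), on 2 Wheel and 5 Control mice with clodronate. Without the 2 muscle-rich libraries it was 1.19 (SE 0.33, adjusted p = 0.0945). The adjusted p ran from 0.0945 to 0.753 over all alternatives and from 0.0515 to 0.670 with 1 mouse left out. The Wheel mice with clodronate had the lowest median share of reads in genes (57.8%), and scaling to those reads gave 1.14 (SE 0.30, adjusted p = 0.193). The end of a Cd55 transcript holds sequence nearly identical to Cd55b, a neighbouring copy that was at the floor in all 22 mice. Reads that map to several places are kept apart from the genes, so the floor value cannot show whether Cd55b was expressed.

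Dpp4, read here as a marker of the interstitial progenitors, was also higher on average in Wheel mice with clodronate. Which cells made it was not tested. Its values there were 6.41, 19.5, 16.2, 22.8 and 17.2 CPM, and in Control mice with clodronate 2.88, 10.5, 16.9, 7.85 and 7.10 CPM. The Wheel values of 16.2, 22.8 and 17.2 CPM came from the lymphocyte-rich libraries. The lowest Wheel mouse lay below 4 of the 5 Control mice. The difference was 0.86 (SE 0.47, interval -0.12 to 1.84, adjusted p = 0.567), and 0.46 (SE 0.61) without the lymphocyte-rich libraries. The difference of the wheel effects between liposomes was 1.11 with an interval of -0.21 to 2.44 (adjusted p = 0.712). Without the lymphocyte-rich libraries it was 0.28 (SE 0.76). For Pi16, expressed by the same progenitors, the difference was -0.16 (SE 0.52). A list of 20 other adventitial progenitor genes had 4 higher and 16 lower in the same comparison (median -0.29, 0 called). Over all genes 49.4% were lower, with a median of 0.00.

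Over all mice, Cd34 had the largest difference in the lower direction, 47.4 ± 13.5 CPM in Wheel and 65.1 ± 10.6 in Control mice with clodronate (-0.49, SE 0.27, adjusted p = 0.557). Without the lymphocyte-rich libraries Cd34 differed by -0.30 (SE 0.33) and Clec3b by more, -0.42 (SE 0.40), and with 1 mouse left out Cd34 ran from -0.60 to -0.29. Cxcl12, the chemokine that binds the receptors Cxcr4 and Ackr3, was 92.4 ± 20.4 CPM in Wheel and 77.8 ± 24.1 in Control mice (0.28, SE 0.23, adjusted p = 0.760). Its difference was 0.10 (SE 0.33) without the lymphocyte-rich and 0.14 (SE 0.24) without the muscle-rich libraries, and 0.11 to 0.41 with 1 mouse left out. The remaining 6 markers, Pdgfra, Pi16, Ly6a, Dcn, Lum and Clec3b, had differences between -0.33 and 0.08. Over the 10 markers, 4 were higher and 6 lower, with a median of -0.09 beside 0.00 over all genes.

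**Figure D3:**
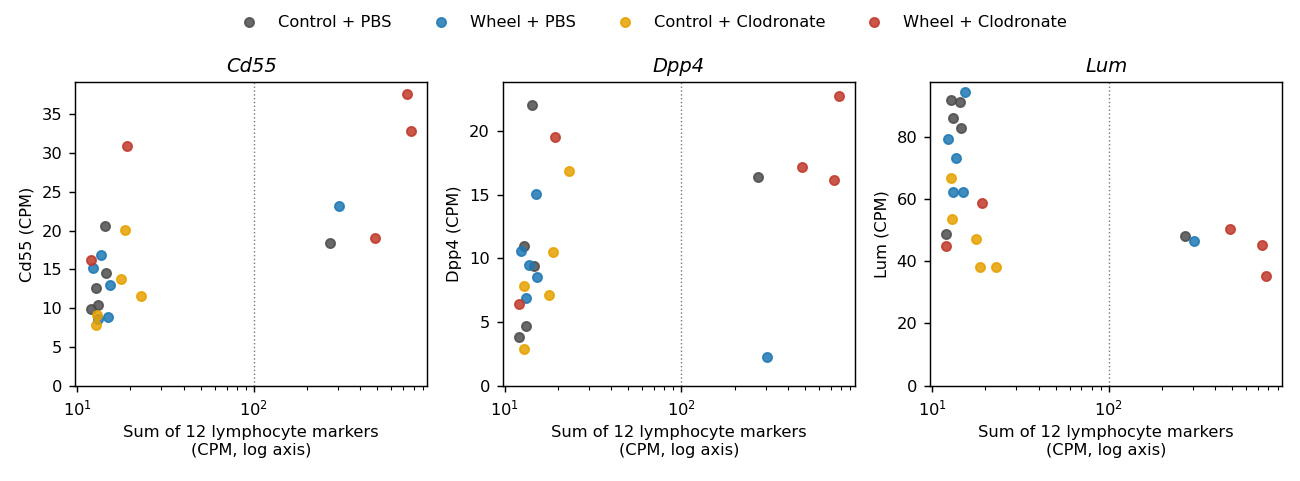
CPM of Cd55, Dpp4 and Lum (linear vertical axes from 0) against the summed CPM of 12 lymphocyte markers (log axis), with 1 point per mouse coloured by group and a dotted line at 100 CPM. The 5 mice to the right of the line have sums of 271 to 779 CPM and include 3 of the 5 Wheel mice with clodronate liposomes. The Wheel mouse with clodronate to the left of the line at 31.0 CPM of Cd55 is a muscle-rich library.

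Clodronate against PBS liposomes asks whether the stroma differed after the drug, and Lum gave the most regular difference. Lum codes for lumican, a small leucine-rich proteoglycan that binds collagen fibrils. In Control mice with clodronate it was at 53.5, 38.1, 38.3, 66.7 and 47.2 CPM, and in Control mice with PBS at 48.1 to 91.8 CPM (median 84.5). In Wheel mice with clodronate it was at 45.04, 58.7, 45.3, 35.2 and 50.2 CPM, and in Wheel mice with PBS at 46.6 to 94.5 CPM (median 67.8). In both pairs the clodronate mice filled the lower part of the range and overlapped with the lower PBS mice. The difference was -0.59 (SE 0.21, adjusted p = 0.560) in Control and -0.55 (SE 0.21, adjusted p = 0.308) in Wheel mice. Averaged over activity it was -0.57 (SE 0.15, interval -0.87 to -0.26), a ratio of 0.675, with adjusted p = 0.0997. It ranked at 120 among 15138 genes. Values without the lymphocyte-rich libraries (-0.60, adjusted p = 0.172) and without the muscle-rich libraries (-0.57, adjusted p = 0.190) were close to it. The adjusted p ran from 0.0752 to 0.324 over all alternatives and from 0.0635 to 0.217 with 1 mouse left out. The 5 lymphocyte-rich mice had 48.1, 46.6, 45.3, 35.2 and 50.2 CPM of Lum, all in its lower range. The difference of the wheel effect between liposomes was 0.04 for Lum, with an interval of -0.56 to 0.65.

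Dcn, which lies next to Lum on chromosome 10 (Dcn at 97479609 to 97518143 and Lum at 97565128 to 97572703, both on the + strand of GRCm38), differed less. Dcn was 710 ± 170 CPM with clodronate and 889 ± 292 with PBS in Control mice (-0.29, SE 0.25, adjusted p = 0.850), and 643 ± 130 against 774 ± 294 CPM in Wheel mice (-0.20, SE 0.25, adjusted p = 0.824). Without the lymphocyte-rich libraries these were -0.43 (SE 0.27) and -0.08 (SE 0.36). With 1 mouse left out the difference in Wheel mice ran from -0.34 to -0.06. The interval of its average, -0.61 to 0.11 around -0.25, holds the estimate for Lum. In Wheel mice, Cd55 was higher with clodronate than with PBS (0.90, SE 0.29, interval 0.30 to 1.5, adjusted p = 0.235), as was Dpp4 (0.88, SE 0.45, adjusted p = 0.467), and these comparisons use the same 5 clodronate mice as the wheel comparison above. Without the lymphocyte-rich libraries Cd55 differed by 0.85 (SE 0.38) and Dpp4 by 0.19 (SE 0.61). That fit kept only mice 1 and 2 of the Wheel group with clodronate. Of the 20 other adventitial progenitor genes, 17 were lower with clodronate in Wheel mice (median -0.34), where 49.9% of all genes were. Averaged over activity, Pdgfra differed by -0.06 (interval -0.35 to 0.22), Clec3b by -0.21 (-0.64 to 0.22) and Ly6a by 0.17 (-0.18 to 0.51). Without the lymphocyte-rich libraries Clec3b differed by -0.35 and Ly6a by 0.01, and without the muscle-rich libraries by -0.15 and 0.26. Over the 10 markers the median was -0.10, with 4 higher and 6 lower, beside -0.04 over all genes.

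Among 20 further genes of the fibroblast matrix, 19 were lower with clodronate averaged over activity, 12 of them at an unadjusted p under 0.05 (8.3% of all genes were lower at that level), with a median of -0.44. Only Col6a3, a chain of type VI collagen, passed over all genes, at 75.1 ± 31.1 and 58.6 ± 16.3 CPM in Control and Wheel mice with clodronate against 111 ± 19.9 and 129 ± 27.3 CPM with PBS (-0.89, SE 0.16, adjusted p = 0.018). Col6a3 differed by -0.94 (SE 0.18, adjusted p = 0.0885) without the 5 lymphocyte-rich and by -0.86 (SE 0.18, adjusted p = 0.0871) without the 2 muscle-rich libraries, and no gene was called in either fit. In those fits 20 and 19 of the 20 matrix genes were lower, with medians of -0.52 and -0.35. In the same comparison over all mice, 12 of 12 skeletal muscle markers (median 1.51) and 12 of 12 lymphocyte markers (median 0.89) were higher with clodronate, with 0 called, and their part in the result was not tested. The matrix list's most abundant genes, the actin-severing protein gelsolin (Gsn) and the collagen-binding Sparc, differed by -0.31 (SE 0.20) and -0.47 (SE 0.17). In Wheel mice alone 20 of 20 matrix genes were lower (median -0.61, 12 at an unadjusted p under 0.05 where 5.54% of all genes were, 0 called). In Control mice 16 of 20 were lower (median -0.35, 2 at an unadjusted p under 0.05 where 6.08% of all genes were, 0 called). Over all genes, 49.9% were lower in Wheel mice (median 0.00) and 65.4% in Control mice (median -0.10). Averaged over activity, 11 of 12 adipocyte markers were lower too (median -0.19, 4 at an unadjusted p under 0.05). Of the 12 macrophage markers 11 were lower (median -0.20, 2 at that level). Pericyte and smooth muscle markers were lower in 8 of 9 (median -0.27) and endothelium markers in 9 of 12 (median -0.18). Epithelium markers were higher in 8 of 12 (median 0.38). Macrophage markers were lower in 12 of 12 in Control mice (median -0.41) and in 8 of 12 in Wheel mice (median -0.18). No gene of these cell type lists was called.

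The 16 genes of committed preadipocytes had a median of -0.38 under clodronate averaged over activity, with 12 lower, 8 of them at an unadjusted p under 0.05, and 0 called. Over all genes tested 57.4% were lower in that comparison, and 8.3% were lower at that level. The most abundant preadipocyte genes, the fatty acid carrier Fabp4 and the lipase Lpl, are also made by adipocytes and differed by -0.45 (SE 0.21) and -0.60 (SE 0.22). In the list of 20 other adventitial progenitor genes, 17 were lower with a median of -0.14, 3 of them at an unadjusted p under 0.05. The 6 progenitor markers among the 10 genes had a median of 0.01 and the 4 general fibroblast markers one of -0.16. Of 13 genes of activated fibroblasts that were tested, 12 were lower (median -0.23, 3 at an unadjusted p under 0.05), and 8 of 11 genes of CD142+ regulatory stroma were lower (median -0.23, 1 each way at an unadjusted p under 0.05). Among the 8 small leucine-rich proteoglycans tested, Dcn and Lum included, 7 were lower with a median of -0.23. No gene of these lists was called. The 5 other PDGF ligands and receptors and the receptors of Cxcl12 gave 0 calls in any comparison, with Ackr3 at 12.0 and Cxcr4 at 6.75 CPM on average.

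Within groups, several markers rose and fell together from mouse to mouse. With group means removed, 6 of 45 pairs passed an adjusted p of 0.05 (permutation of mice within groups, 100000 draws, Benjamini-Hochberg over 45 pairs), all 6 positive and 5 of them with Clec3b. Dcn and Clec3b had r = 0.79 (rho = 0.75, adjusted permutation p = 0.0099 and 0.011, n = 22), and r = 0.76 without the 2 mice farthest in Dcn. Dcn and Lum had r = 0.73 (rho = 0.81, adjusted permutation p = 0.011 and 0.0027), with 0.73 after the same omission. Lum and Clec3b had r = 0.70, Pi16 and Clec3b 0.66, Cd34 and Clec3b 0.64, and Clec3b and Cxcl12 0.63, with adjusted permutation p between 0.022 and 0.039. By rank, the relations of Clec3b with Pi16 (rho = 0.57) and Cxcl12 (rho = 0.58) did not pass, at adjusted permutation p = 0.053 and 0.052. The relation of Pi16 with Clec3b fell to r = 0.43 without the 2 mice farthest in Pi16, so it leans on those mice. The 45 pairs had a median r of 0.20, with 20% above 0.5, beside 4.43% for the 10 markers with every other gene tested. All values of a mouse share its library and total.

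Ly6a mostly ran against the others. Of its 9 pairs, 8 were below 0, down to r = -0.58 with Dcn (rho = -0.54, adjusted permutation p = 0.070 and 0.080) and r = -0.54 with Pi16 (rho = -0.67, adjusted permutation p = 0.093 and 0.013). Without the 2 mice farthest in Ly6a its r with Dcn was -0.37. By Pearson's r, Pdgfra, Dpp4, Cd55 and Ly6a had no pair past the threshold. Dpp4 and Cd55 had r = 0.29, and 0.53 without the 2 mice farthest in Dpp4.

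**Figure D4:**
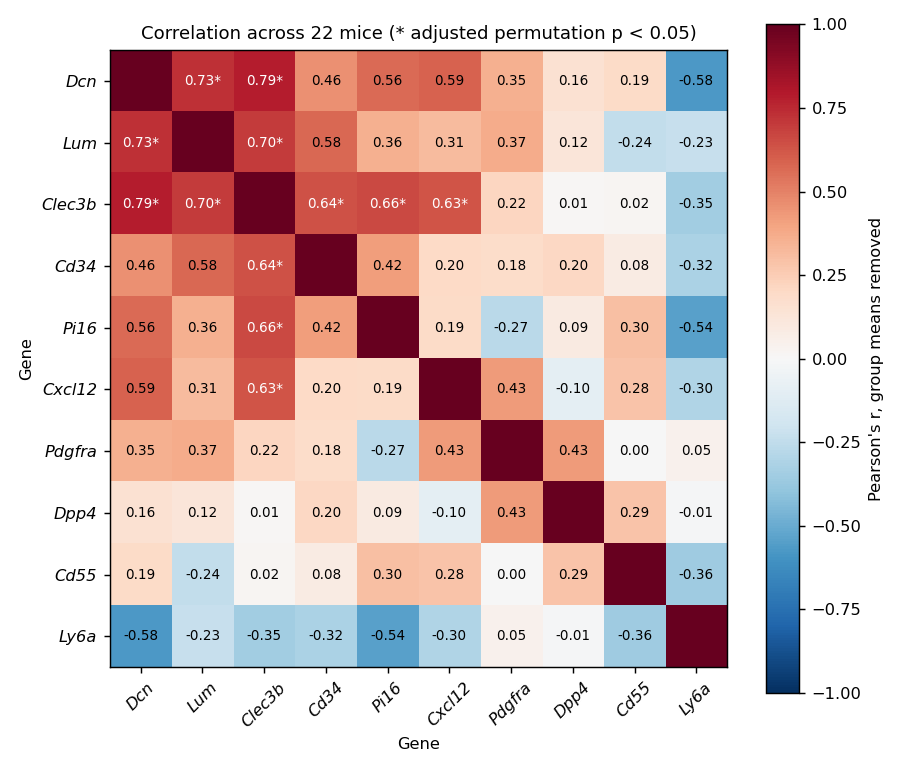
Pearson's r between the 10 markers across 22 mice after removing group means, from blue (-1) to red (1), with the value in each cell and an asterisk at an adjusted permutation p under 0.05. The 6 pairs with an asterisk lie among Dcn, Lum, Clec3b, Cd34, Pi16 and Cxcl12, and the row of Ly6a is mostly below 0.

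Dcn and Lum also varied with the makeup of the sample. Of 100 relations between the 10 markers and 10 cell type lists, 5 passed an adjusted permutation p of 0.05, all of Dcn or Lum and all positive. Lum went with the adipocyte list at r = 0.71 (rho = 0.72, adjusted permutation p = 0.016 and 0.014), with the endothelium list at 0.70 and with the pericyte and smooth muscle list at 0.69. Dcn went with the pericyte and smooth muscle list at r = 0.78 (rho = 0.80, adjusted permutation p = 0.009 and 0.0085) and with the adipocyte list at 0.71. Both were negative with the dividing cell list, at r = -0.59 for Dcn and -0.61 for Lum, which did not pass (adjusted permutation p = 0.082 and 0.071). Lum had r = -0.54 with the lymphocyte list (rho = -0.37, adjusted permutation p = 0.071 and 0.31), and -0.53 without the 2 mice farthest in Lum. Cd55 had r = 0.48 with the lymphocyte list (rho = 0.52, adjusted permutation p = 0.28 and 0.16), and 0.39 without the 2 mice farthest in Cd55. Its relation with the skeletal muscle list was of like size, r = 0.50 (rho = 0.42, adjusted permutation p = 0.17 and 0.31), and 0.40 after the same omission.

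The 5 genes most like the mean of the 10 markers, among 15128 others and with group means removed in 22 mice, were Serping1 (r = 0.84), Timp2 (0.80), Mfap5 (0.80), Rnase4 (0.79) and Tbc1d17 (0.78). Serping1 codes for the C1 inhibitor of complement, Timp2 for an inhibitor of matrix metalloproteinases and Mfap5 for a microfibril protein. They were chosen for this likeness, at mean levels of 144 CPM for Serping1, 485 for Timp2, 35.4 for Mfap5, 93.4 for Rnase4 and 17.2 for Tbc1d17.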

How the data were processed

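Total RNA of the engrafted mammary tissue of 22 mice was sequenced with QuantSeq 3′ FWD libraries. The submitters' processing notes name STAR 2.5.3a and GRCm38, and the gene counting is not given in the sources used here. The authors deposited 1 signal per gene and mouse in CPM, with values below 1 raised to a floor of 1. Multiples of 1 read (within 0.01 reads) accounted for 100% of values over the floor, and their step gave 13256467 to 20484578 reads per mouse. The floor corresponds to 13 to 20 reads. The 4 rows for reads outside genes were left out, and 57.2% to 64.5% of reads lay in genes above the floor. As the floor removes low counts, tests that need counts were not used.

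Groups and replicate numbers came from the sample labels. Where a symbol had several rows (106 symbols), only its highest row by mean was used. The 15138 genes that exceeded the floor in 5 or more mice entered limma 3.58.1 (R 4.3.3) on log2(CPM + 1), which understates the change of low genes. The fit used 4 group means, eBayes with a variance trend, and Benjamini-Hochberg adjustment at 0.05. In a simulation of Wheel against Control with PBS liposomes, log2 changes of 1.5 were put into 200 of 15138 genes, and 83.5% were recovered with 12 false calls. The 200 genes were drawn from those above a set mean level, and the noise was normal and independent between genes. The change of 1.5 exceeds every difference of a marker here, and comparisons with groups of 5 mice were not simulated. Relations across mice were computed on residuals from group means by 100000 permutations within groups in numpy 2.4.6.

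The 10 members, the other gene lists and the alternatives were chosen with earlier results of these data known. Text names all 10 members, genes called in each list or else its most abundant ones, at most 2 of them, and the 5 genes most like the members' mean. Leaving out lymphocyte-rich mice (over 100 CPM for 12 markers) and muscle-rich mice (over 10000 CPM) was added after seeing the data. Transcript ends (400 bases of GENCODE M21, BLAST 2.17.0, at least 97% identity over 100 bases) of 4 members matched 1 other gene each, of which Cd55b, Gm13561 and Gm42803 were at the floor in all mice. The match of Pi16, AC162182.1, was not among the gene symbols of the deposited values, so its level is unknown. The antisense gene Gm16897 overlaps the end of Cd34 and was at the floor too.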

Additional observations from a re-analysis of the deposited data

Results flagged for a closer look

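Of 40 sets of values (10 markers in 4 groups), 6 held a mouse set apart from the rest of its group by Dixon's gap test at the 95% level, where chance gives about 2. All values are log2(CPM + 1). Dpp4 was 2.89 in Wheel mouse 1 with clodronate liposomes, with the next mouse at 4.10. Pi16 was low in 2 mice, at 1.96 in Wheel mouse 4 with PBS liposomes (next 4.47) and at 2.80 in Control mouse 5 with clodronate liposomes (next 4.10). Dcn was high at 9.77 in Wheel mouse 2 with clodronate liposomes, 1 of the 2 muscle-rich libraries (next 9.27). Cxcl12 was high at 6.48 in Control mouse 3 with PBS liposomes (next 6.26) and at 7.01 in Wheel mouse 3 with clodronate liposomes, a lymphocyte-rich library (next 6.48). The wheel effect differed between liposomes for 0 of 10 markers at an adjusted p of 0.05 (limma) and for 1, Cd55, at an unadjusted p under 0.05.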

How the results depend on the processing

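No marker passed an adjusted p of 0.05 in any of the 7 comparisons under any alternative, with or without each mouse. Over all 10 markers and 7 comparisons, the sign changed in 31 of 810 values under other settings and in 61 of 1540 values with 1 mouse left out, none of them past the threshold. For wheel running with PBS liposomes, leaving out the lymphocyte-rich mice gave 0.18 for Dpp4 and -0.13 for Pi16, and leaving out single mice gave -0.480 to 0.0352 for Dpp4. Without the muscle-rich mice Pdgfra averaged 0.0147 for clodronate over activity. Their cause was not tested.

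Counts of genes called over the whole table moved more. For wheel running with clodronate, 1 gene was called, against 3 with no filter, 0 under a 5 CPM minimum mean, under the replicate block or in a fit of the compared groups alone, 12 without the lymphocyte-rich mice, 6 without the muscle-rich mice and 0 to 236 with 1 mouse left out (236 without Wheel mouse 2 with clodronate). For clodronate in Wheel mice, 1 gene was called, against 3 with a pseudocount of 5 or upper-quartile scaling, 4 with no filter, 2 with scaling to reads in genes or without the variance trend, 0 under a 5 CPM minimum mean, under the replicate block or in a fit of the compared groups alone, 14 without the lymphocyte-rich mice, 40 without the muscle-rich mice and 0 to 51 with 1 mouse left out (51 without that same mouse). For clodronate in Control mice the count was 0, and 0 to 38 with 1 mouse left out (38 without Control mouse 1 with clodronate). For clodronate averaged over activity it was 31, against 54 under a 5 CPM minimum mean, 12 with upper-quartile scaling, 15 with scaling to reads in genes, 20 without the trend, 11 with the replicate block, 0 without the lymphocyte-rich or the muscle-rich mice and 9 to 146 with 1 mouse left out (9 without Control mouse 3 and 146 without Control mouse 1, both with clodronate). With no filter, 2 genes were called for wheel running averaged over liposomes and 2 for the difference of the wheel effect. Genes at the floor in every mouse have no spread and could not be fitted, so that setting used genes above it in at least 1 mouse.

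Same-numbered mice of different groups are different animals, and their deviations had a mean r of -0.13 to 0.18 by pair of groups. Single pairs of mice ran from -0.39 to 0.52. Mice with different numbers were not compared, so these values cannot decide whether a number marks a shared batch. The main fit treats the mice as unpaired. Upper-quartile scaling shifted the median of all genes by at most 0.10 in size (log2), in the difference of the wheel effect. Changes below the floor, equal to 13 to 20 reads by mouse, are out of reach at this depth.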
